A study of Homo sapiens with 6 samples.

Results

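This account follows 9 genes of the antioxidant programme in lung cancer cells after knockdown of the long non-coding RNA MYLK-AS1. They are NFE2L2 and KEAP1, which encode the transcription factor NRF2 and its inhibitor, SRXN1, TXN and PRDX1 of the thioredoxin system, PGD, TALDO1 and TKT of the pentose phosphate pathway, and ME1, the cytosolic malic enzyme. The genes were chosen by symbol for these roles, with earlier results of these data known. Each was found among the 54261 rows of the count table. All 9 passed the filter on low counts. The libraries were made from total RNA of cells labelled PC9/GR, a lung cancer line. A control small interfering RNA (si-NC) was given to 3 samples and an interfering RNA against MYLK-AS1 (si-MYLK-AS1) to the other 3, so both groups share the line and its background. The sources used here do not give the interfering RNA sequence, its dose or the time of harvest. The labels do not say that repeats came from separate cultures, so the spread behind the p-values may be technical only.

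KEAP1 is the adaptor that brings NRF2 to a ubiquitin ligase built on CUL3 and RBX1, and NRF2 is thereby degraded in unstressed cells. When oxidants or electrophiles modify KEAP1, NRF2 accumulates, binds antioxidant response elements together with small MAF proteins and raises transcription of genes for glutathione synthesis, thioredoxin reduction and NADPH production. NADPH is the electron source of both the thioredoxin and the glutathione systems, and the pentose phosphate pathway and malic enzyme are among its sources. Lung cancers often carry an active NRF2 pathway, and this pathway is known to direct glucose and glutamine into NADPH and nucleotide synthesis.

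Promoter sequence was looked at for the core of the antioxidant response element, TGACNNNGC, on both strands. RefSeq promoter windows (GRCh38.p14) of 300 bases, from 250 before to 50 after a transcription start, were matched for 8 of the 9 genes, with 10 windows in all. PRDX1 was not matched. The motif was in 3 of these 10 windows, those of PGD, ME1 and KEAP1, against 13.3% of all 35116 windows. The matches are printed below with 10 bases on each side because they are the stretches on which NRF2 and small MAF proteins could be looked for at these genes. Capitals mark the motif, each line is read on the strand on which the motif runs as written, and no binding was measured in this study. The first ME1 match is centred 133 bases before the start, on the coding strand.
ME1 (chr6:83431170-83431198, minus strand): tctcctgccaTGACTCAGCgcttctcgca
ME1 (chr6:83431022-83431050, plus strand): gctgctggggTGACGGTGCtgactgcagc
PGD (chr1:10398853-10398881, minus strand): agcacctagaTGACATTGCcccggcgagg
KEAP1 (chr19:10502807-10502835, minus strand): acttttattgTGACACGGCgggcgcccgg
KEAP1 (chr19:10502784-10502812, plus strand): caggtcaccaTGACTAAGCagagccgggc
The motif was therefore present at a gene that rose (ME1), at one that fell (PGD) and at one that did not pass the test (KEAP1). The windows of SRXN1, NFE2L2, TKT, TXN and TALDO1 hold no such letters, which says nothing of sites outside these 300 bases.

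Values of a group are given in the order of replicates 1, 2 and 3. Library totals ran from 7551303 to 11055408 reads. MYLK-AS1 itself was counted with 20, 16 and 19 reads in the control libraries and with 0, 5 and 4 reads in the knockdown libraries (change of -2.43 on the log2 scale, SE 0.60, edgeR adjusted p = 0.00326). Knockdown replicate 3 was set apart from the other libraries by the second principal component of log2 expression, which carried 12.97% of the variance. Among markers of the labelled cell type, the 6 epithelial genes summed to between 11844 and 13867 CPM in the control (CPM are reads of a gene per 1000000 reads of the normalised library) and to between 7620 and 8225 CPM in the knockdown. Keratins KRT7, KRT8 and KRT18 carried most of this sum and fell, as did CDH1. EPCAM was near absent in both groups and fell from 15, 16 and 14 reads to 7, 5 and 4 reads. KRT19 rose to 109 ± 5.52 CPM, against 84.0 ± 9.89 CPM in the control (SD, n = 3 each, log2 change 0.37, SE 0.10, edgeR adjusted p = 0.00816). The lung lineage markers were near absent, with 0 to 10 reads of NKX2-1 in any library and 0 reads of SFTPB in all 6. EGFR, named after its value was seen and encoding the receptor that the series title is about, had 28, 28 and 17 reads in the control and 34, 38 and 22 reads in the knockdown. Whether these low counts come from the counting or from the cells was not tested, and no value here checks the identity of the line. Of the 5 leukocyte markers PTPRC and CD3E had 0 reads in every library, while CD68 carried most of a summed level of 169 to 242 CPM in the control and 261 to 301 CPM in the knockdown. All 4 endothelial markers had at most 15 reads in every library. Of 6 fibroblast markers, 4 had at most 15 reads in every library, COL1A2 was at 0 in all of them, and the sum was 21.8 to 28.1 CPM in the control and 28.4 to 36.3 CPM in the knockdown. The part of these marker differences in the results below was not tested.

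Of the 9 genes, 3 rose (NFE2L2, SRXN1 and ME1), 2 fell (PGD and TKT) and 4 did not pass the threshold (KEAP1, TXN, PRDX1 and TALDO1). The rise was from 1.58-fold to 2.14-fold, and the fall left 64.4% and 67.4% of the control level. Calls were made at 0.05 on the p of edgeR's quasi-likelihood test after Benjamini-Hochberg adjustment over 15391 genes, and 42.0% of all tested genes passed, 21.3% upward and 20.7% downward. The 5 of 9 that passed are thus close to the background, and the count is not a result about these genes as a set. The median log2 fold change was 0.05 over the 9 genes and 0.00 over all tested genes. The same 5 genes were the ones whose CPM did not overlap between the groups, a property of 52.2% of all tested genes.

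**Figure D1:**
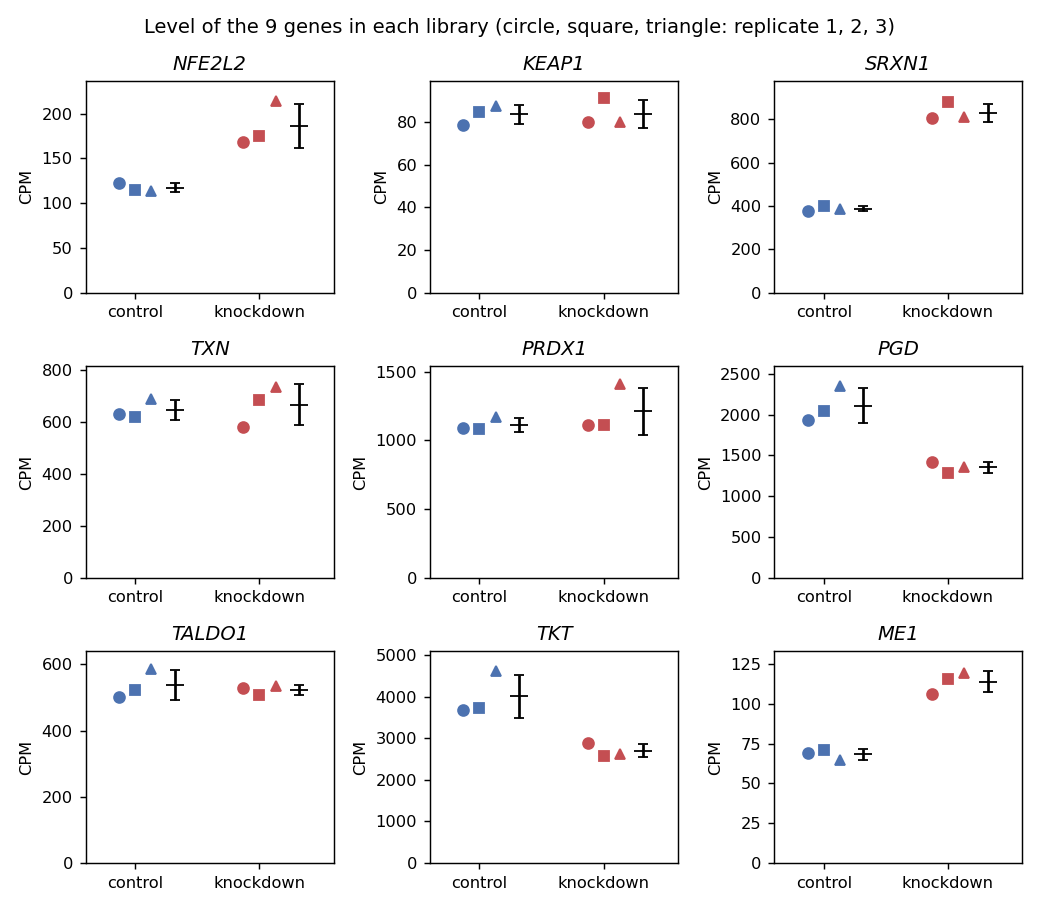
Level of each of the 9 genes in CPM (vertical axis, starting at 0) in the 3 control and 3 knockdown libraries, with the marker shape giving the replicate number and the black bar the mean ± SD of the group. The knockdown points lie above the control points for NFE2L2, SRXN1 and ME1 and below them for PGD and TKT, and the points of the other 4 genes overlap.

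The regulators moved unequally. NFE2L2 (chromosome 2, 177227595 to 177392697, minus strand, GENCODE release 29 on GRCh38) encodes NRF2. It stood at 123, 115 and 114 CPM in the control and at 168, 176 and 214 CPM in the knockdown. Every knockdown library was above every control library, and knockdown replicate 3 was the highest. The group means were 117 ± 5.01 and 186 ± 24.5 CPM (SD, n = 3 each), and the fitted change was 0.66 in log2 units (SE 0.10, edgeR adjusted p = 5.42e-05). Without knockdown replicate 3 the log2 fold change was 0.56. Of its 5979 annotated exon bases 1054 are shared with a gene model on the same strand that has no row in the count table.

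KEAP1 (chromosome 19, 10486120 to 10503741, minus strand) stood at 78.8, 84.7 and 87.3 CPM in the control and at 79.8, 91.2 and 80.0 CPM in the knockdown. Its groups overlapped, with both the lowest library and the second highest in the control. The log2 fold change was 0.00 (95% interval -0.21 to 0.21, adjusted p = 0.994 by edgeR), so that a change of more than 0.21 in either direction lies outside the interval. Within each library the ratio of NFE2L2 to KEAP1, taken on levels per exon length, does not depend on how libraries are scaled to each other. This ratio was 0.983, 0.851 and 0.822 in the control libraries and 1.33, 1.21 and 1.68 in the knockdown libraries. The transcript of the activator was thus below that of its inhibitor in all 3 control libraries and above it in all 3 knockdown libraries. On which side of 1 the ratio lies rests on the annotated exon lengths, while the difference between the groups does not.

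Genes linked to NRF2 and its regulation were read from a list of 15, of which 14 were tested. The list mixes partners of NRF2 with parts of ligases that target it, so its count and median have no single direction. Of the 14 tested genes, 8 rose, 2 fell and 4 did not pass (71.4% called, against 42.0% of all tested genes). The median log2 fold change was 0.34. The list was drawn up with earlier results of these data known, so the share is a description only. SQSTM1, the autophagy receptor that binds KEAP1 and is itself an NRF2 target, rose most. It stood at 1342, 1328 and 1628 CPM in the control and at 3527, 3672 and 3950 CPM in the knockdown (log2 fold change 1.37, SE 0.10, adjusted p = 1.42e-08 by edgeR). MAFG, a small MAF partner of NRF2, rose by 0.42 on the log2 scale (SE 0.09). RBX1, the RING subunit of the ligase that KEAP1 serves, fell to 24.9 ± 2.59 CPM, against 55.0 ± 6.21 CPM in the control (SD, n = 3 each, log2 change -1.15, SE 0.13). SYVN1, the ligase of the endoplasmic reticulum that can also target NRF2, fell to 10.7 ± 2.52 CPM, against 29.4 ± 3.19 CPM in the control (log2 change -1.44, SE 0.17). CUL3, the scaffold between KEAP1 and RBX1, was named after its value was seen, and it rose by 0.53 (SE 0.13, edgeR adjusted p = 0.00275). The scaffold and the RING subunit of the same ligase therefore moved in opposite directions.

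In the thioredoxin system, SRXN1 changed and its partners did not pass the test. SRXN1 (chromosome 20, 646615 to 653370, minus strand) encodes sulfiredoxin, which restores peroxiredoxins whose active cysteine has been overoxidised. It stood at 377, 401 and 386 CPM in the control and at 805, 879 and 810 CPM in the knockdown. The knockdown libraries were all above the highest control library, and the spread within each group was small beside the difference. The group means were 388 ± 12.0 and 831 ± 41.6 CPM (SD, n = 3 each), and the fitted change was 1.10 in log2 units (SE 0.09, edgeR adjusted p = 3.45e-08), which is 2.14-fold. Of its 2698 annotated exon bases 2292 are shared with a second gene model on the same strand. That model has no row in the count table, and whether the overlap affected the SRXN1 count was not tested.

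PRDX1 (chromosome 1, 45511036 to 45523047, minus strand) encodes the cytosolic peroxiredoxin that sulfiredoxin repairs. It stood at 1087, 1082 and 1172 CPM in the control and at 1114, 1113 and 1407 CPM in the knockdown. Only knockdown replicate 3 lay above the control range. The log2 fold change was 0.12 (95% interval -0.09 to 0.33, adjusted p = 0.359 by edgeR) and 0.01 without knockdown replicate 3. PRDX1 shares 379 exon bases with MMACHC on the opposite strand, which had 20 to 60 reads in any library, and the sources used here do not say whether counting used strand.

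TXN (chromosome 9, 110243811 to 110256640, minus strand) encodes thioredoxin, which passes electrons to peroxiredoxins. It stood at 630, 619 and 688 CPM in the control and at 580, 683 and 736 CPM in the knockdown. The lowest and the highest library were both knockdown libraries. The log2 fold change was 0.05 (95% interval -0.16 to 0.25, adjusted p = 0.742 by edgeR) and -0.02 without knockdown replicate 3. Reads of TXN can be shared with its pseudogene copies, since 5 of 7 such rows carry reads that add up to 9.66% of the TXN reads. With those reads added the log2 fold change was 0.03. The ratio of SRXN1 to PRDX1 per exon length was 0.196, 0.209 and 0.186 in the control and 0.408, 0.446 and 0.325 in the knockdown libraries.

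Of 20 other listed genes of the thioredoxin, glutaredoxin and peroxiredoxin families, 18 were tested, and 4 rose, 4 fell and 10 did not pass, with a median log2 fold change of 0.04. The share that passed, 44.4%, is close to the 42.0% of all tested genes, so the count is not a result about these families. PRDX4, the peroxiredoxin of the endoplasmic reticulum, rose to 216 ± 40.6 CPM, against 158 ± 2.24 CPM in the control (SD, n = 3 each, log2 change 0.44, SE 0.11). Knockdown replicate 3 stood at 263 CPM against 193 and 191 CPM in the other knockdown libraries, and without it the PRDX4 change was 0.29. GLRX3, a glutaredoxin that handles iron-sulfur clusters, rose by 0.54 (SE 0.12). NXN, the thioredoxin-related nucleoredoxin, fell to 43.5 ± 3.36 CPM, against 85.3 ± 1.40 CPM in the control (log2 change -0.98, SE 0.10). SESN3, a sestrin, fell from 11, 14 and 16 reads to 5, 2 and 2 reads, a low count. TXNIP, the thioredoxin-binding inhibitor, was named after its value was seen and fell from 9.13 to 5.46 CPM (log2 fold change -0.73, SE 0.20). TXNRD1 and PRDX2 had too few reads to be tested, with 1 to 13 and 1 to 3 reads in any library, so the reductase that recharges cytosolic thioredoxin could not be compared.

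In the pentose phosphate pathway, PGD and TKT fell and TALDO1 did not pass. PGD (chromosome 1, 10398592 to 10420144, plus strand) encodes phosphogluconate dehydrogenase, the enzyme of the later NADPH-producing step of the oxidative branch. It stood at 1935, 2044 and 2348 CPM in the control and at 1424, 1289 and 1359 CPM in the knockdown. All knockdown libraries were below all control libraries, and control replicate 3 was the highest. The group means were 2109 ± 214 and 1358 ± 67.4 CPM (SD, n = 3 each), and the fitted change was -0.64 in log2 units (SE 0.09, edgeR adjusted p = 4.15e-05). Reads of its 2 pseudogene rows came to 1.87% of the PGD reads.

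TKT (chromosome 3, 53224707 to 53256052, minus strand) encodes transketolase, which with transaldolase links the pathway back to glycolysis. It stood at 3685, 3736 and 4613 CPM in the control and at 2889, 2584 and 2632 CPM in the knockdown. The groups did not overlap, and control replicate 3 was again the highest. The group means were 4011 ± 522 and 2702 ± 164 CPM (SD, n = 3 each), and the fitted change was -0.57 in log2 units (SE 0.10, edgeR adjusted p = 0.000228). Without control replicate 3 the log2 fold change was -0.46.

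TALDO1 (chromosome 11, 747329 to 765024, plus strand) encodes transaldolase, another enzyme of the non-oxidative branch. It stood at 502, 523 and 587 CPM in the control and at 530, 506 and 535 CPM in the knockdown. All 3 knockdown libraries lay inside the control range. The log2 fold change was -0.04 (95% interval -0.23 to 0.15, adjusted p = 0.765 by edgeR). The ratio of TKT to TALDO1 per exon length was 2.32, 2.26 and 2.48 in the control and 1.72, 1.61 and 1.56 in the knockdown. The balance of the transcripts of these partner enzymes was thus lower in every knockdown library. How high the ratio stands rests on the annotated exon lengths.

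Of the 11 other listed genes of the pathway, 10 were tested, and 4 rose, 3 fell and 3 did not pass. This was 70.0% called, against 42.0% of all tested genes, with a median log2 fold change of 0.07. With so few genes, listed with earlier results known, the share is a description only. H6PD, a dehydrogenase that makes NADPH in the endoplasmic reticulum, fell by 0.39 on the log2 scale (SE 0.11), and lost its call without control replicate 2 or knockdown replicate 3. PRPS2, which makes phosphoribosyl pyrophosphate from the pathway's product, fell by 0.53 on the log2 scale (SE 0.11). SHPK, the sedoheptulose kinase, rose by 0.38 (SE 0.12), a call lost without control replicate 1. PGLS, RPE and DERA, named after their values were seen, rose by 0.35, 0.34 and 0.43, and each lost its call when at least 1 library was left out. The number that rose was 0 without control replicate 1, 2 without control replicate 2 and 1 without knockdown replicate 3.

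ME1 (chromosome 6, 83210389 to 83431071, minus strand) encodes the cytosolic enzyme that turns malate into pyruvate and makes NADPH. It stood at 69.0, 71.2 and 64.6 CPM in the control and at 106, 115 and 119 CPM in the knockdown. Every knockdown library was above every control library. The group means were 68.3 ± 3.35 and 114 ± 6.63 CPM (SD, n = 3 each), and the fitted change was 0.74 in log2 units (SE 0.10, edgeR adjusted p = 1.16e-05). ME1 and PGD, which both make cytosolic NADPH, therefore moved in opposite directions. The ratio of PGD to ME1 per exon length was 31.9, 32.6 and 41.3 in the control and 15.2, 12.7 and 12.9 in the knockdown libraries. PGD remained more abundant per length than ME1 in every library.

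The 4 within-library ratios were chosen after the values were seen. None of them overlapped between the groups, and each had p = 0.1 in a two-sided exact permutation test (n = 3 each; 0.1 after Benjamini-Hochberg adjustment over the 4), the smallest that 3 against 3 samples can give. Each pair was built on a gene already called above, so the separation follows from the choice and is a description only. The adjustment does not cover the other pairs that could have been formed.

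**Figure D2:**
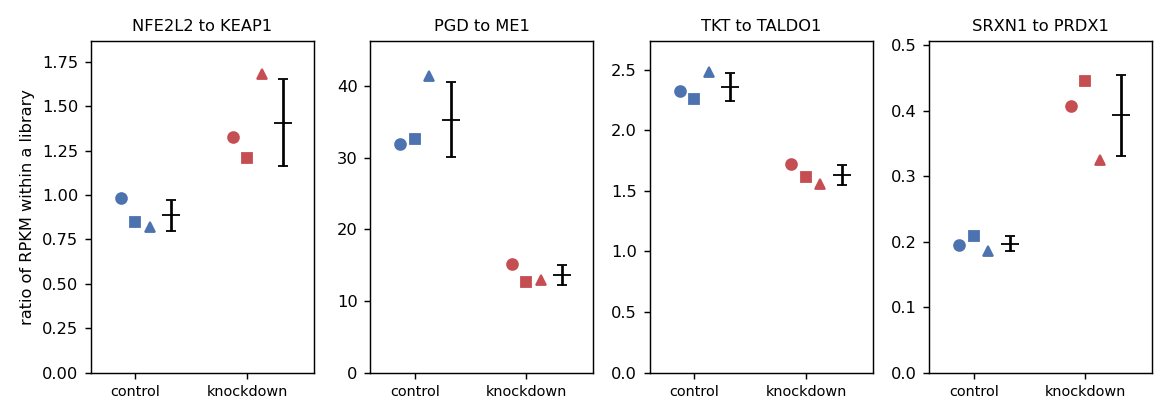
Ratio of the per-length levels of 2 genes within a library (vertical axes, starting at 0) for 4 pairs, with the marker shape giving the replicate number and the black bar the mean ± SD. The knockdown ratios are above the control ratios for NFE2L2 to KEAP1 and SRXN1 to PRDX1, and below them for PGD to ME1, 12.7 to 15.2 against 31.9 to 41.3, and for TKT to TALDO1.

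Of 15 genes listed as other NADPH sources, 14 were tested, and 2 rose, 7 fell and 5 did not pass. This was 64.3% called, against 42.0% of all tested genes, of which 21.3% rose and 20.7% fell. The median log2 fold change was -0.32. With so few genes, listed with earlier results known, these shares are a description only. IDH1, the cytosolic NADP-linked isocitrate dehydrogenase, rose to 443 ± 28.4 CPM, against 331 ± 10.9 CPM in the control (SD, n = 3 each, log2 change 0.42, SE 0.09). ME2, a mitochondrial malic enzyme, rose to 75.8 ± 10.8 CPM, against 47.6 ± 4.62 CPM in the control (log2 change 0.67, SE 0.12). ME3, the NADP-linked malic enzyme of mitochondria, was named after its value was seen and fell from 30.6 to 19.1 CPM (log2 fold change -0.67, SE 0.14). Of the malic enzyme genes, ME1 and ME2 therefore rose and ME3 fell. MTHFD2, the mitochondrial folate dehydrogenase, fell to 60.1 ± 9.69 CPM, against 138 ± 13.6 CPM in the control (log2 change -1.20, SE 0.12). FDXR, which had the lowest p of the list, fell to 53.8 ± 1.17 CPM, against 152 ± 16.2 CPM in the control (log2 change -1.50, SE 0.10). It takes electrons from NADPH rather than supplying them, yet it is counted among the 7 that fell and in the median. The list is therefore not one of NADPH sources alone. Whether each other listed enzyme, ME2 and MTHFD2 among them, makes NADPH was not checked. The count and the median are thus no measure of NADPH supply. H6PD is counted in this list as well.

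**Figure D3:**
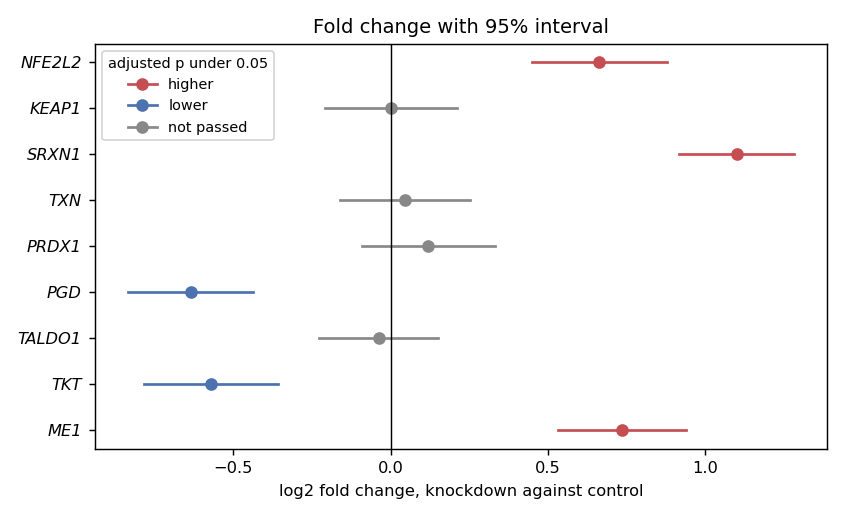
Log2 fold change of the 9 genes, knockdown against control (horizontal axis), as points with the 95% interval of the quasi-likelihood fit as lines, coloured by the call at an adjusted p of 0.05. SRXN1 is farthest to the right at 1.10, PGD farthest to the left at -0.64, and the intervals of KEAP1, TXN, PRDX1 and TALDO1 cross 0.

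Among 26 other genes known as NRF2 targets, 24 were tested, and 14 rose, 4 fell and 6 did not pass. This was 75.0% called, against 42.0% of all tested genes, with a median log2 fold change of 0.41. Since earlier results of these data were known when the list was drawn up, the share is a description only. HMOX1, the heme oxygenase, stood at 36.8, 39.3 and 40.2 CPM in the control and at 266, 239 and 244 CPM in the knockdown. GCLC and GCLM, which together form glutamate-cysteine ligase, rose by 1.28 (SE 0.11) and 1.06 (SE 0.11) on the log2 scale. GPX2, a glutathione peroxidase, fell to 302 ± 30.5 CPM, against 612 ± 12.1 CPM in the control (SD, n = 3 each, log2 change -1.02, SE 0.09). The drug exporter ABCC3 (-0.82) and the epoxide hydrolase EPHX1 (-0.72), named after their values were seen, were also among the targets that fell. Members of the 9 that are themselves known NRF2 targets also went in both directions, with SRXN1 and ME1 higher, PGD and TKT lower, and TXN, PRDX1 and TALDO1 not past the threshold.

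**Figure D4:**
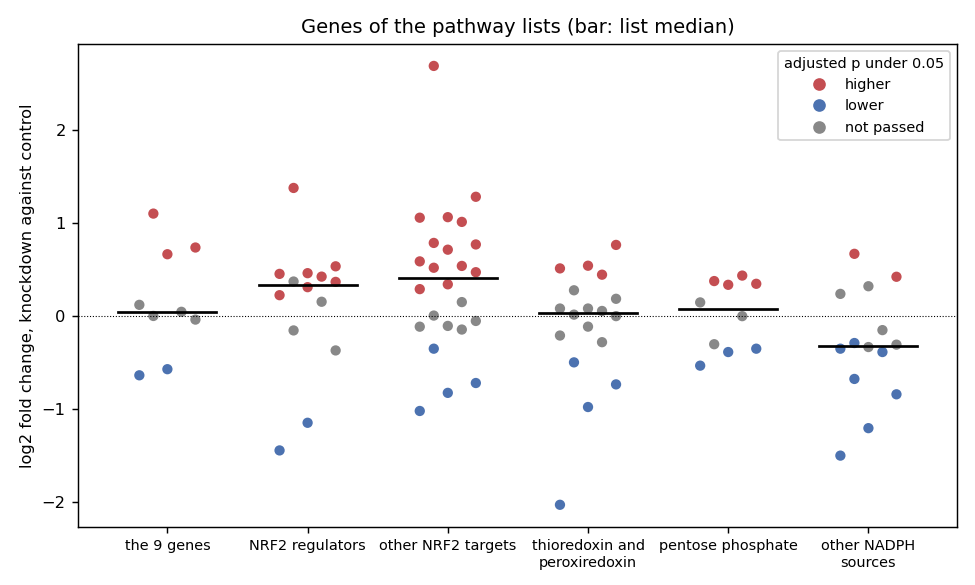
Log2 fold change, knockdown against control (vertical axis), of every tested gene among the 9 genes and in 5 pathway lists, coloured by the call at an adjusted p of 0.05, with a bar at each median. The medians are 0.34 for NRF2 regulators, 0.41 for other NRF2 targets and -0.32 for other NADPH sources. The last of these lists is not one of NADPH sources alone, and it includes FDXR, which uses NADPH. Every list holds genes called in both directions.

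Levels of the 9 genes were compared with each other per kilobase of annotated exon (RPKM, that is CPM per kilobase, with lengths from GENCODE release 29). In the control PRDX1 and PGD were highest on this scale, at 732 ± 33.4 and 711 ± 72.2 RPKM (SD, n = 3 each). These 2 genes did not differ beyond their spread. TXN followed at 565 ± 32.7 and TKT at 422 ± 54.9 RPKM. TALDO1 stood at 179 ± 14.8 and SRXN1 at 144 ± 4.44 RPKM. KEAP1, ME1 and NFE2L2 were lowest, at 22.2 ± 1.17, 20.3 ± 0.994 and 19.6 ± 0.838 RPKM, with overlap of ranges between KEAP1 and ME1 and between ME1 and NFE2L2.

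In the knockdown the order changed at several places. PGD, at 458 ± 22.7 RPKM, stood below TXN at 584 ± 69.7 RPKM (SD, n = 3 each). SRXN1, at 308 ± 15.4 RPKM, stood above TALDO1 at 174 ± 5.14 RPKM and overlapped with TKT at 284 ± 17.2 RPKM. ME1 and NFE2L2, at 33.7 ± 1.97 and 31.1 ± 4.10 RPKM, both stood above KEAP1 at 22.2 ± 1.73 RPKM. On this scale the level of PGD fell by 253 RPKM, while that of ME1 rose by 13.5 RPKM. TKT has 9507 annotated exon bases over all its transcripts, so its per-length level would be higher if the cells use a shorter form.

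**Figure D5:**
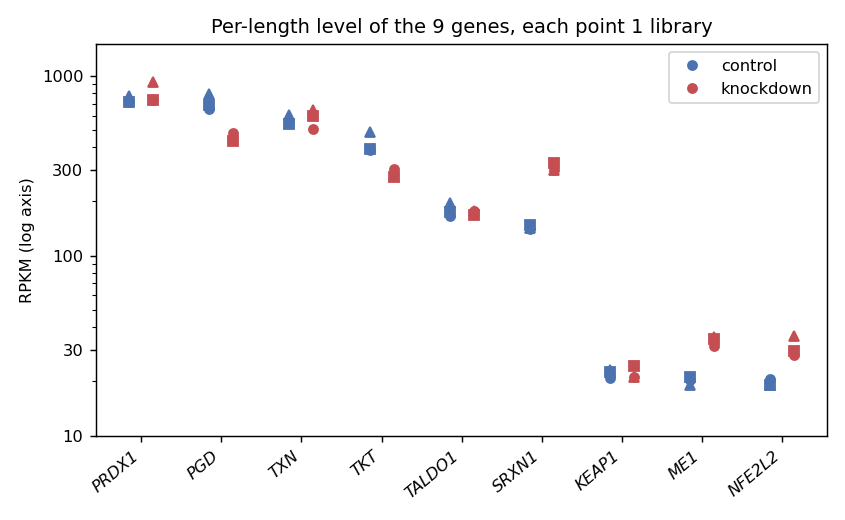
Level per exon length in RPKM (vertical log axis) of the 9 genes in each library, with control in blue, knockdown in red and the marker shape giving the replicate number. The genes are ordered by control mean from PRDX1 at 732 to NFE2L2 at 19.6, and SRXN1 moves from below to above TALDO1 in the knockdown.

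SRXN1 had the lowest p of the 9 genes, and its profile over the 6 libraries was compared with that of 9490 other genes at a mean of at least 10 CPM. The most alike were SLC20A1, a phosphate transporter (Pearson r = 0.999), TRPA1, a cation channel (0.998), and CCND1, the cyclin D1 gene (0.998), on log2 values. SLC20A1 went from 100.3 ± 5.05 to 199 ± 9.15 CPM (SD, n = 3 each). Of all compared genes 107 reached r of 0.99 or more, since the 6 points fall into 2 groups and share their libraries, so these values are a description only.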

How the data were processed

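The authors deposited a table of raw read counts, with 1 row per gene symbol and 1 column for each of 6 libraries. RNA was harvested with Trizol and made into Ion Proton libraries, per the labels' protocols, and the submitters' processing notes name the build GRCh38. For the aligner, counter, annotation and use of strand, nothing was given in the sources used here. The test was that of edgeR 4.0.16 (R 4.3.3), after filterByExpr, TMM scaling and a robust quasi-likelihood fit of group over all 6 libraries, adjusted over 15391 genes. The SE is the log2 fold change divided by the square root of F. Intervals use the fit's degrees of freedom. Group labels and repeat numbers come from the sample titles. The test was also run on simulated data. Recovery rates from that run are not reported here, so it gives no measure of power at the changes found. Alternatives were RLE, upper quartile or no factors, no filter, 5 CPM in 3 libraries, DESeq2 1.42.0, limma-voom (limma 3.58.1), each library left out, the repeat number as a block and, chosen after seeing the data, pseudogene reads added. Exon lengths came from GENCODE release 29. The 9 genes and the pathway lists were chosen with earlier results of these data known. The rule named MYLK-AS1, all 9 genes, up to 4 genes with the lowest p from each of 5 pathway lists, and the 3 genes most like the member with the lowest p. A gene under this rule is not reported here by name and remains in the counts.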

Additional observations from a re-analysis of the deposited data

How the results depend on the processing

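NFE2L2, SRXN1, ME1, PGD and TKT kept their direction and their call under all 15 alternatives. Their log2 fold changes ranged from 0.56 to 0.74 for NFE2L2, from 1.06 to 1.13 for SRXN1, from 0.70 to 0.79 for ME1, from -0.70 to -0.55 for PGD and from -0.63 to -0.46 for TKT. The other 4 genes passed under none of them. KEAP1, at 0.00, changed sign with upper quartile factors (-0.025), no factors (-0.027), the filter of 5 CPM (-0.032) and limma-voom (-0.00097), and ran from -0.062 to 0.040 as libraries were left out. TXN ran from -0.024 to 0.142 and TALDO1 from -0.089 to 0.029 as libraries were left out. The number of other pentose phosphate genes that rose, 4, ran from 0 to 3 when a library was left out. Whether the same repeat number marked paired samples is not known. Deviations from the group means correlated at -0.0485, 0.0665 and 0.0537 for like numbers 1 to 3, and at -0.100 to 0.0558 for unlike numbers. Values this close to 0 show no shared repeat effect, and they cannot exclude a paired design. With the repeat number as a block 6521 genes passed, against 6457, and the calls of the 9 genes did not change. With 3 libraries a group and a common coefficient of variation of 11.8%, differences smaller than the intervals given could not be seen.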

Other observations

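The aldo-keto reductase genes of the NRF2 target list, which reduce carbonyl compounds with NADPH, were abundant in both groups and did not pass the test. AKR1B10 had a mean of 2878 CPM in the control and of 3193 CPM after knockdown (log2 fold change 0.15, adjusted p = 0.221 by edgeR), and AKR1C2 at 3919 and 3545 CPM (-0.14, adjusted p = 0.204). AKR1C1 had 1307 and 1261 CPM (-0.05, adjusted p = 0.849) and AKR1C3 2225 and 2056 CPM (-0.11, adjusted p = 0.350). AKR1C1 and AKR1C2 are near-identical in sequence, so how reads were split between them is uncertain and was not tested. NQO1, the quinone reductase, stood beside them with 2745 CPM in the control and rose to 4730 CPM after knockdown (log2 fold change 0.78, SE 0.10). TXNRD1 and PRDX2, which most cell types express, had 1 to 13 and 1 to 3 reads in any library, and the cause of these low counts was not tested.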
